A study of Homo sapiens with 24 samples.

Results

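The RNAs of the human mitochondrial genome are described here across the captures of a proximity labelling study in HEK293T cells. A gene was included when its Ensembl identifier carried a symbol that begins with MT-, a rule that uses names and no measured value. It found 37 of the 57992 genes in the table: 13 mRNAs, 2 rRNAs (MT-RNR1 and MT-RNR2) and 22 tRNAs, of which 28 lie on the plus strand of chrM in GRCh38 and 9 on the minus strand. The mitochondrial genome is transcribed inside the organelle as long precursors from both strands, and excision of the tRNAs between the genes releases most mRNAs and rRNAs. The mRNAs encode core subunits of respiratory complexes I, III and IV and of the ATP synthase (complex V), and they are translated by mitochondrial ribosomes without entering the cytosol. Stress granules and processing bodies are assemblies of mRNA and protein in the cytosol, so the mitochondrial membranes stand between them and these RNAs.

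The study marked RNA near 3 proteins in HEK293T cells, a line derived from human embryonic kidney, each cell line stably carrying 1 bait fused to miniSOG: TIA1-miniSOG or G3BP2-miniSOG, both stress granule proteins, or miniSOG-DDX6, whose bait is a helicase of processing bodies. In blue light (24 mW/cm2 for 15 min) miniSOG makes singlet oxygen, which oxidises guanine. The probe propargylamine, given at 10 mM with a stated time of 5 min, reacts with the oxidised base. The RNA can then be joined to biotin and pulled down on streptavidin. TIA1, G3BP2 and DDX6 cells received 0.5 mM sodium arsenite, which was present for 1 hr in total and for 40 min of it preceded the probe, and DDX6 cells were also labelled unstressed. Each of these 4 combinations had a labelled capture, an input (labelled total RNA before the capture) and a no-probe capture without propargylamine, with 2 replicates each, or 24 libraries in 12 groups. A bait and its stable line cannot be told apart, since each bait was given in 1 line. The labels do not say whether replicates were separate cultures, so p-values measure the spread between these samples, which may be technical. They name no poly(A) selection or rRNA depletion.

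Because the label forms on guanine, the mRNA sequences shown include those with the most guanine (MT-ND6) and the least (MT-ATP8). MT-ND5, the longest of the mRNAs, is shown beside them, and later values were known when these were chosen. MT-ND6 is the only mRNA among the 13 encoded on the minus strand, and its 525 bases (chrM:14149-14673) hold 35.6% guanine, against 6.28% in MT-ATP8 (chrM:8366-8572) and 10.6% in MT-ND5 (chrM:12337-14148). Of the other 12 mRNAs MT-CO1 had the most, at 16.2%. Among the tested genes of the whole table the median was 24.6%, with the 5th and 95th percentiles at 18.9% and 32.1%. Capitals mark guanine, and each mRNA is given by its first 120 bases as transcribed, from GENCODE release 29: MT-ND6 at chrM:14554-14673 on the minus strand, MT-ND5 at chrM:12337-12456 and MT-ATP8 at chrM:8366-8485, both on the plus strand.
MT-ND6: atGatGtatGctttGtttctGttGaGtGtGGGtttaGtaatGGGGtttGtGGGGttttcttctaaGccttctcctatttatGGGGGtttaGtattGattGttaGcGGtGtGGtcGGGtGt
MT-ND5: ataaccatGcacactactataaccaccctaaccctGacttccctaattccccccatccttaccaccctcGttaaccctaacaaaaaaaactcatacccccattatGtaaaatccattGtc
MT-ATP8: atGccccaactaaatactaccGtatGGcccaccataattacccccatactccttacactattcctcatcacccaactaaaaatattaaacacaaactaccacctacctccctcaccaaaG
These stretches hold 40, 5 and 5 guanines. The tRNAs shown are the 3 with the most counts and MT-TC, which had more counts in no-probe captures than in inputs in all 4 combinations, a choice made after their counts were seen. MT-TV (valine, chrM:1602-1670, plus strand) and MT-TM (methionine, chrM:4402-4469, plus strand) hold 15.9% and 19.1% guanine, and MT-TP (proline, chrM:15956-16023, minus strand) and MT-TC (cysteine, chrM:5761-5826, minus strand) hold 23.5% and 24.2%.
MT-TV: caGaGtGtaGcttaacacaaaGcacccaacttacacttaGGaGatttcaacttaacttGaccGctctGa
MT-TM: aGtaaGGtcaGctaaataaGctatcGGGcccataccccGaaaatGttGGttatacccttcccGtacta
MT-TP: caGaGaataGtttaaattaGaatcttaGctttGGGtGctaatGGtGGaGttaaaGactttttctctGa
MT-TC: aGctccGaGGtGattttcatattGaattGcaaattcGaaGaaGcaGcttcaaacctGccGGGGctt

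Mitochondrial RNA was a large part of the inputs and a small part of the labelled captures. All 37 genes together took 31.6% and 31.1% of the counts of the 2 TIA1 inputs, 24.4% and 23.7% with G3BP2, 29.7% and 29.6% with DDX6 under arsenite, and 27.5% and 29.8% with unstressed DDX6. In the labelled captures these shares were 6.60% and 8.48%, 1.74% and 1.84%, 3.62% and 3.13%, and 4.11% and 3.62%, in the same order. The G3BP2 captures were thus the lowest of the 8 and the TIA1 captures the highest, with no overlap between them or with any input. No-probe captures held 27.8% and 30.2%, 20.5% and 20.0%, 21.4% and 28.0%, and 18.8% and 23.6%, far above every labelled capture.

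Most of these counts were ribosomal. The 2 rRNAs took 21.9% to 28.5% of an input, the 13 mRNAs 1.78% to 3.07%, and the 22 tRNAs at most 0.0314%. Per kilobase of gene, the mean CPM, after TMM scaling of library sizes, in inputs was 129940 for MT-RNR1 and 112495 for MT-RNR2, against 4528 for MT-CO1, the highest mRNA, and 1277 for MT-ND3, the lowest. MT-TV, the tRNA with the highest such level, had 1570.

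**Figure D1:**
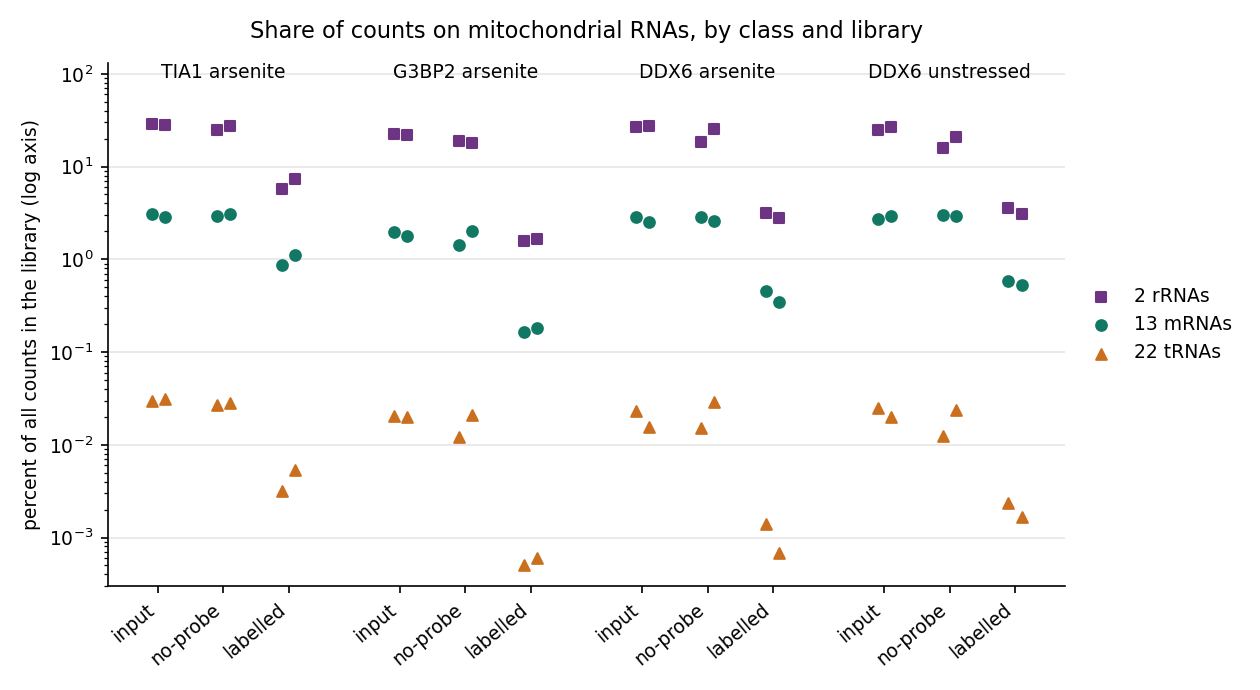
Share of all counts (percent, log axis) taken by the mitochondrial mRNAs, rRNAs and tRNAs in each library, for the 4 combinations of bait and treatment and the 3 kinds of library; points are the 2 replicates. For mRNAs and rRNAs every labelled capture lies below every input and no-probe capture, and the G3BP2 captures, at 1.58% and 1.66% for rRNA, are the lowest.

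Every mRNA and rRNA was counted in every library. Total counts were 3344960 to 5919467 in labelled captures, 2511043 to 3825961 in inputs and 1129510 to 3472565 in no-probe captures. The lowest count of any of the 13 mRNAs in any library was 48 and that of an rRNA 33048, and all 15 passed the filter on low counts together with 8 of the 22 tRNAs. Replicates correlated at 0.911 to 0.986 in log2 CPM over the tested genes, with G3BP2 no-probe captures lowest. Of markers of HEK293T cells, VIM had 374 to 564 counts and NEFM 117 to 273 in inputs, while markers of blood cells and endothelium (PTPRC, CD3E, HBB, CDH5) had 0 in each, apart from PECAM1 with 0 to 2. In RNA from bulk cells, fewer cells with a transcript and less of it per cell cannot be told apart.

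Enrichment is the labelled capture over its input. It is given as a log2 fold change ± SE from edgeR's quasi-likelihood fit to the 24 libraries, with levels as TMM-normalised CPM. Such levels are relative within a library, so less of an RNA and more of the other RNAs captured cannot be told apart. No measure of the amount of RNA recovered was used. All 13 mRNAs and both rRNAs fell in all 4 combinations. Over all 14360 tested genes, 35.8% changed with TIA1, 38.3% with G3BP2, 37.7% with DDX6 under arsenite and 42.5% with unstressed DDX6, and 16.4%, 17.5%, 17.3% and 19.6% were called lower. The highest adjusted p over the 13 mRNAs in edgeR's test was 7.29e-06, 2.18e-10, 7.54e-10 and 1.74e-08 in that order. Medians over the 13 were -2.36, -4.24, -3.44 and -3.06, where the median over all tested genes was near 0. For each of the 15 genes, both labelled captures lay below both inputs in every combination.

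Complex I, the NADH dehydrogenase, draws 7 subunits from the mitochondrial genome, and their mRNAs included the smallest falls with TIA1, G3BP2 and unstressed DDX6. MT-ND5, which encodes a large subunit of its proton-pumping arm, had 3201 and 3129 in TIA1 inputs and 810 and 1076 in the labelled captures, a fall of 1.75 ± 0.20. With G3BP2 the inputs held 1657 and 1590 and the captures 158 and 165, a fall of 3.33 ± 0.22. Its fall was 3.01 ± 0.21 with DDX6 under arsenite, from 3189 and 2606 to 419 and 299, and 2.47 ± 0.21 in unstressed DDX6 cells, from 3145 and 3559 to 647 and 559. MT-ND5 was therefore 3.36, 10.1, 8.06 and 5.56 times lower in the labelled captures of the 4 combinations, and no capture came near an input.

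MT-ND6, another membrane-arm subunit of complex I and the guanine-rich transcript shown above, moved by almost the same amounts. It went from 782 and 832 to 197 and 292 with TIA1 and from 419 and 369 to 37.1 and 40.6 with G3BP2. With DDX6 under arsenite it went from 828 and 629 to 103 and 61.8, and in unstressed DDX6 cells from 771 and 876 to 149 and 120. The falls were 1.72 ± 0.27, 3.34 ± 0.29, 3.14 ± 0.28 and 2.61 ± 0.27. The kit is not stated to mark strand, so reads of MT-ND6 and of RNA from the opposite strand cannot be told apart.

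The other complex I transcripts fell further. MT-ND2 dropped from 966 and 954 to 41.3 and 46.5 with G3BP2, a change of -4.45 ± 0.25, and from 2353 and 2184 to 388 and 499 with TIA1, a change of -2.36. MT-ND3, a short transcript of 346 bases, fell from 556 and 502 to 73.4 and 94.3 with TIA1 and from 256 and 246 to 12.7 and 9.10 with G3BP2, by 2.66 ± 0.24 and 4.51 ± 0.28. MT-ND1, which sits next to the quinone site, changed by -2.26, -3.92, -3.26 and -2.90. MT-ND4 changed by -2.18, -3.98, -3.25 and -2.76, and MT-ND4L by -2.44, -4.25, -3.44 and -3.19. MT-ND4L lies with MT-ND4 on the same bicistronic mRNA and overlaps it by a few bases. How the authors' counting divided those bases is uncertain.

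MT-CYB encodes cytochrome b, the sole complex III subunit made in mitochondria. Its level fell from 3576 and 3381 to 625 and 821 with TIA1, by 2.27 ± 0.22, and from 1753 and 1661 to 89.8 and 99.9 with G3BP2, by 4.17 ± 0.24. With DDX6 it fell 7.99 times under arsenite, from 3023 and 2873 to 428 and 310, and by 2.67 ± 0.22 (6.37 times) without, from 2180 and 2547 to 396 and 346.

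MT-CO1, MT-CO2 and MT-CO3 encode the catalytic core of complex IV, cytochrome c oxidase. MT-CO1 had the highest mRNA level, 8226 and 8133 in TIA1 inputs, and fell to 1614 and 2065. With G3BP2 it went from 5415 and 5335 to 398 and 400, and with DDX6 from 7871 and 6219 to 880 and 646 under arsenite and from 7076 and 7585 to 1192 and 1018 unstressed. Its changes were -2.15 ± 0.22, -3.75 ± 0.23, -3.21 ± 0.23 and -2.73 ± 0.22, among the smaller ones. MT-CO2 changed by -2.59, -4.39, -3.56 and -3.11, and MT-CO3 by -2.45, -4.24, -3.48 and -3.07.

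MT-ATP8 and MT-ATP6 encode membrane subunits of complex V and overlap on 1 bicistronic mRNA, so how the authors' counting divided their shared bases is uncertain. MT-ATP8, at 207 bases the shortest mRNA, went from 350 and 346 to 48.7 and 67.8 with TIA1 and from 185 and 226 to 8.15 and 8.09 with G3BP2. With DDX6 it went from 316 and 266 to 17.5 and 16.4 under arsenite and from 251 and 294 to 27.8 and 21.1 unstressed. These falls of 2.58 ± 0.26, 4.65 ± 0.30, 4.10 ± 0.29 and 3.47 ± 0.27 amounted to 5.98, 25.1, 17.1 and 11.1 times, the largest among the mRNAs in the G3BP2 and both DDX6 captures. MT-ATP6 changed by -2.46, -4.35, -3.48 and -3.20.

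**Figure D2:**
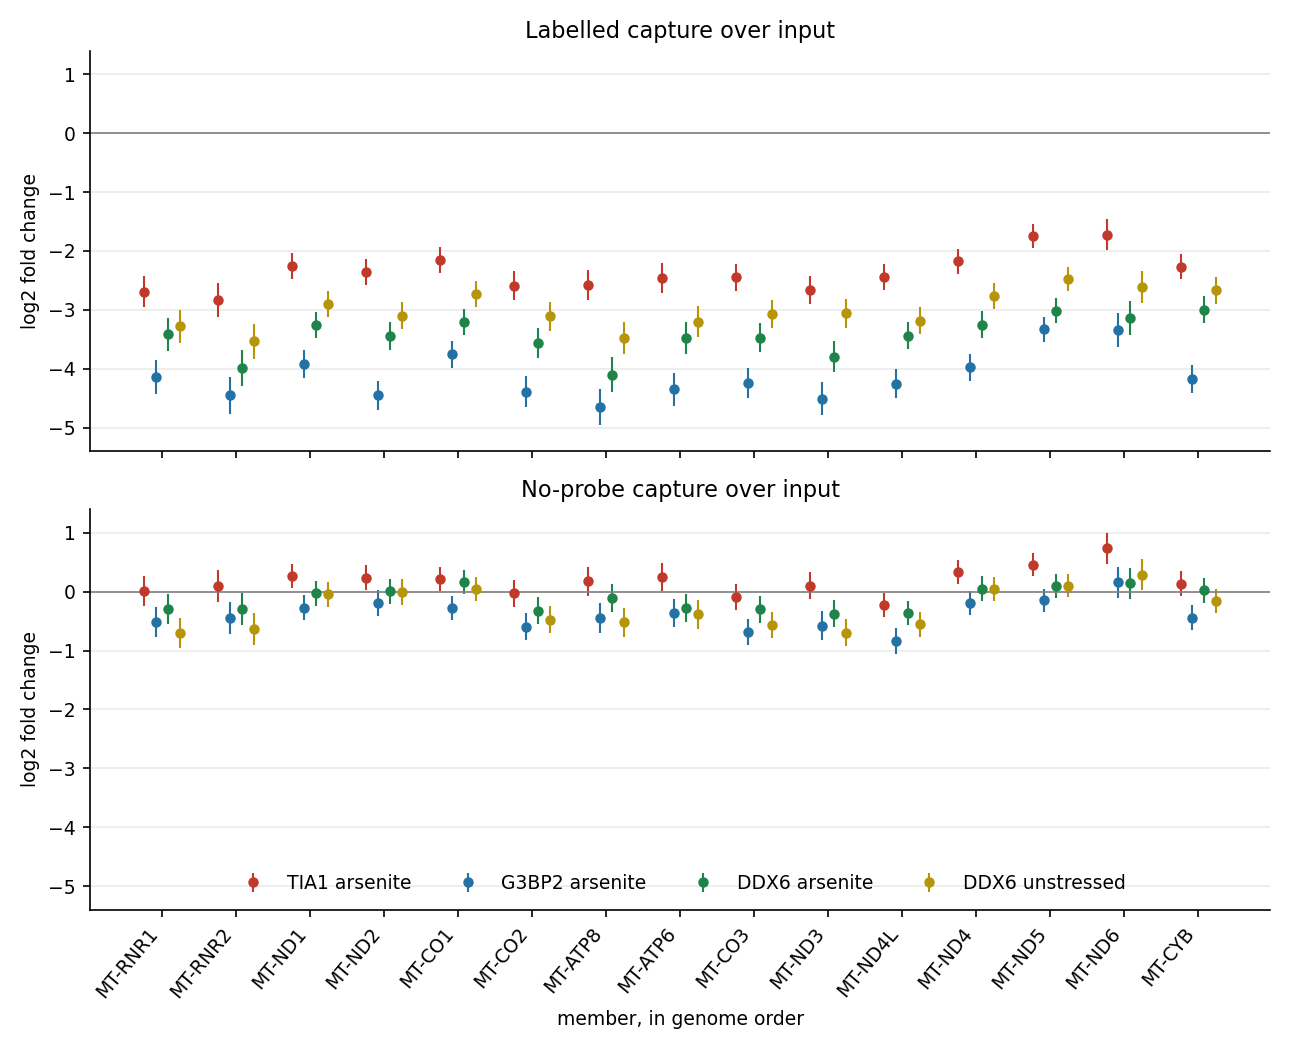
Log2 fold change ± SE of the 13 mRNAs and 2 rRNAs in genome order, for the 4 combinations; the upper panel shows the labelled capture over its input and the lower panel the no-probe capture over the same input. In the upper panel every gene lies below -1.7 and the order from TIA1 (smallest fall) to G3BP2 (largest) holds for all 15, while the lower panel stays between -0.84 and 0.74.

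The rRNAs of the small (MT-RNR1, 12S) and large (MT-RNR2, 16S) mitochondrial ribosomal subunits also fell. MT-RNR1 went from 143922 and 148698 to 20446 and 24844 with TIA1 and from 95296 and 102574 to 5690 and 5568 with G3BP2. With DDX6 it went from 134601 and 141437 to 13251 and 12632 under arsenite, and from 105148 and 120026 to 12390 and 10755 unstressed. Its changes were -2.69 ± 0.27, -4.14 ± 0.29, -3.41 ± 0.28 and -3.28 ± 0.28.

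MT-RNR2 was lower still against its inputs. It went from 193889 and 202307 to 23070 and 32670 with TIA1, and from 145843 and 153403 to 6782 and 6891 with G3BP2. With DDX6 the levels were 188336 and 196485 against 12617 and 11548 under arsenite, and 150442 and 172334 against 15376 and 12483 unstressed. The falls of 2.83 ± 0.29, 4.45 ± 0.31, 3.99 ± 0.31 and 3.53 ± 0.30 equal 7.11, 21.9, 15.9 and 11.6 times. The ratio of MT-RNR2 to MT-RNR1 counts was 1.35 to 1.53 in the 8 inputs and 0.914 to 1.31 in the 8 labelled captures, and these ranges do not overlap.

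The tRNAs carry amino acids to the mitochondrial ribosome and separate most of the other genes on the precursors. Counts on a tRNA gene can come from the tRNA or from a precursor that still holds it, which cannot be told apart here. Of the 22, MT-TA, MT-TN, MT-TS1 and MT-TK had no count in any library, 6 had 1 to 10 counts over all 24 (MT-TQ, MT-TW, MT-TD, MT-TG, MT-TR and MT-TL2), and MT-TL1, MT-TI, MT-TT and MT-TE had 58, 31, 23 and 15. These 14 held 144 counts together, at most 8 in a library, and were too low to compare. The 8 tested tRNAs had most of their counts in inputs or no-probe captures, so that passing the filter favoured genes low in labelled captures. Their labelled captures are therefore described by counts and estimates, with no call.

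MT-TV lies between the 2 rRNAs and had the most counts. Its inputs held 329 and 338 counts with TIA1, 301 and 253 with G3BP2, 278 and 220 with DDX6 under arsenite and 362 and 234 with unstressed DDX6. The labelled captures held 49 and 74, 5 and 12, 9 and 3, and 37 and 15. Scaled by library size, inputs held 15.4 times the labelled level with TIA1 (exact 95% interval 12.7 to 18.8), 80.0 times with G3BP2 (49.5 to 138), 67.5 times with DDX6 under arsenite (38.3 to 131) and 23.0 times unstressed (17.3 to 31.2), where these intervals cover counting error only. The estimates of edgeR's fit were -3.92 ± 0.47, -6.28 ± 0.63, -6.06 ± 0.68 and -4.50 ± 0.53.

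MT-TM, between MT-TQ and MT-ND2, also had few counts in the captures. It had 155 and 160 counts in TIA1 inputs against 19 and 33 in the captures, 137 and 108 against 1 and 4 with G3BP2, 120 and 74 against 0 and 1 with DDX6 under arsenite, and 121 and 118 against 11 and 6 unstressed. The scaled ratio was 17.2 with TIA1 (12.8 to 23.5) and 28.2 with unstressed DDX6 (17.3 to 49.3). With DDX6 under arsenite, the single captured count gives a ratio of 315 with an interval from 56.0 to 12523.

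MT-TP, transcribed from the other strand, had more captured counts than either in every combination. Its counts were 241 and 205 against 77 and 81 with TIA1, 163 and 157 against 19 and 5 with G3BP2, 307 and 271 against 44 and 17 with DDX6 under arsenite, and 318 and 267 against 61 and 55 unstressed. Its estimates were -2.99 ± 0.22, -5.03 ± 0.30, -3.97 ± 0.25 and -3.33 ± 0.23. The other 5 that passed the filter had fewer counts. MT-TH had 0 to 15 in labelled captures against 12 to 45 in inputs, MT-TF 0 to 11 against 5 to 29, MT-TY 0 to 4 against 3 to 14, MT-TS2 0 to 3 against 2 to 14 and MT-TC 0 to 4 against 3 to 11.

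The no-probe capture asks which RNAs are found on the beads without label, as shares of a library and not as amounts. Background is the no-probe capture over the input of the same combination, an input from cells that had received the probe. It therefore also spans that difference in treatment. By edgeR, background was called for none of the 13 mRNAs and 2 rRNAs in any combination. The share of all tested genes called was 0.0139% with TIA1, 0.167% with G3BP2, 0 with DDX6 under arsenite and 0.0139% unstressed, and at an unadjusted p under 0.05 the 15 genes gave 2, 6, 0 and 7. DESeq2 called 2 members with G3BP2 and 0 in the other 3. Counts at an unadjusted p and counts by DESeq2 are given, here and below, without their share over all tested genes. They are not read as results about the members. Medians over the 13 mRNAs were 0.21, -0.36, -0.03 and -0.16, and the unadjusted 95% intervals of the 15 genes ran from -1.29 to 1.26. The largest values were those of MT-ND6 with TIA1, 0.74 ± 0.26 (1314 and 1373 against 782 and 832, adjusted p = 0.609), and of MT-ND4L with G3BP2, -0.84 (167 and 120 against 266 and 254, adjusted p = 0.0827).

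Among tRNAs MT-TP was the exception, lower by 1.31 ± 0.25 in the G3BP2 no-probe captures (44 and 30 counts, edgeR adjusted p = 0.036), a call that was lost without either G3BP2 input or either no-probe capture (adjusted p of 0.101 to 0.214). MT-TC had no-probe counts of 14 and 31, 18 and 13, 19 and 36, and 7 and 23 against 7 and 4, 11 and 7, 5 and 3, and 6 and 6 in inputs, and was not called in this comparison. No-probe captures with DDX6 under arsenite differed between replicates, with MT-TV at 59 and 423 counts and MT-RNR2 at 101419 and 212663.

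Probe dependence, the labelled over the no-probe capture, was negative and called for all 15 mRNAs and rRNAs in all 4 combinations. Of all tested genes 45.4%, 45.4%, 42.7% and 48.1% were called, and 21.7%, 21.7%, 20.2% and 23.1% lower. Medians over the 13 mRNAs were -2.51, -3.73, -3.23 and -2.77, and the highest adjusted p over the 15 in edgeR's test was 2.43e-08 with TIA1. Both labelled captures lay below both no-probe captures for each of the 15 genes in every combination. For MT-CO2 the no-probe captures held 3207 and 3674 with TIA1 against 472 and 693 labelled, and 1538 and 1866 with G3BP2 against 116 and 128.

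A fit in which the sum of the 13 mRNAs served as library size compared members with each other. Since nearly all nuclear genes differ from mitochondrial mRNA on this scale, 93.2%, 96.3%, 92.9% and 91.8% of tested genes were called in enrichment, adjusted p-values are close to unadjusted ones, and each mRNA is part of its own reference. In enrichment 5, 5, 6 and 4 members were called lower and 1, 2, 0 and 0 higher on this scale, tRNAs included. The tRNAs passed the filter largely through inputs and no-probe captures, which favoured lower calls, so their part in these counts is no result. With the sum of all members as reference, 2 were lower in each and 4, 3, 2 and 5 higher. The share of all tested genes called with that reference is not given here, so these counts are not read as a result. MT-RNR2 fell relative to the mRNAs in all 4 combinations, by 0.60 ± 0.24 with TIA1 (adjusted p = 0.013), 0.47 ± 0.23 with G3BP2, just under the threshold of 0.05, 0.70 ± 0.24 with DDX6 under arsenite (0.0044) and 0.71 ± 0.24 unstressed (0.0039). With TIA1 this was lost without the first labelled capture (0.063) or the second input (0.0522), and with G3BP2 without any 1 of the 4 libraries (0.0718 to 0.153). MT-RNR1 was not called, at -0.45, -0.15, -0.12 and -0.45. Summed rRNA counts were 6.64 and 6.56 times the mRNA counts in TIA1 captures against 9.29 and 9.87 in inputs, 9.56 and 9.22 against 11.4 and 12.4 with G3BP2, 6.91 and 8.02 against 9.44 and 10.6 with DDX6 under arsenite, and 6.09 and 5.92 against 9.06 and 9.14 unstressed. Captures were below inputs in every combination. No-probe captures had 8.50 and 8.72, 13.2 and 8.96, 6.57 and 9.73, and 5.27 and 7.03, which lay above the labelled captures with TIA1 and spanned them in the other 3. Against no-probe captures, where 94.3%, 93.6%, 91.8% and 89.7% of tested genes were called, MT-RNR2 passed with TIA1 (-0.49, adjusted p = 0.045) and had -0.40, -0.39 and -0.17 in the others. Without any 1 of its 4 libraries the TIA1 call was lost (0.0766 to 0.137).

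For the tRNAs MT-TV and MT-TM, which passed the filter largely through inputs and no-probe captures, the values on this scale are a description. For MT-TV the relative enrichment was -1.70 ± 0.36, -2.32 ± 0.49, -2.83 ± 0.53 and -1.71 ± 0.39, and its relative probe dependence -1.70, -2.22, -2.98 and -1.16. For MT-TM these were -1.86, -2.91, -4.95 and -1.99, and -1.37, -2.43, -5.16 and -1.44. Without the second no-probe capture of unstressed DDX6 cells, the relative probe dependence there was -0.22 for MT-TV and -0.24 for MT-TM, and without the first G3BP2 labelled capture it was -1.61 for MT-TM.

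MT-ATP8 fell more than the sum of the mRNAs with G3BP2 (-0.68, adjusted p = 0.017), with DDX6 under arsenite (-0.81, 0.0034) and unstressed (-0.65, 0.013), but not with TIA1 (-0.35, 0.17). The G3BP2 call was lost without either labelled capture or the second input (0.0655 to 0.143), the arsenite DDX6 call without the first labelled capture (0.051) and the unstressed one without the second labelled capture (0.102) or the second input (0.0552). With all members as reference none of these MT-ATP8 calls passed (adjusted p of 0.135 to 0.647). MT-ND5 fell less, with a relative value of 0.49 ± 0.24 with TIA1 (0.046) and 0.65 ± 0.24 with G3BP2 (0.0082), and was not called with DDX6. Its TIA1 call was lost without any 1 of the 4 libraries (0.0933 to 0.132) and its G3BP2 call without the second input (0.0502). MT-ND6 had 0.64 ± 0.25 with G3BP2 (0.015) and 0.50 ± 0.25 with TIA1, just over the threshold, and its G3BP2 call was lost without the second labelled capture (0.068) or the second input (0.0955). As shares of mRNA counts, MT-ND5 made up 12.4% and 12.3% of TIA1 captures against 8.80% in each input, and 12.1% and 12.2% of G3BP2 captures against 7.81% and 7.67%. MT-ND6 made up 3.01% and 3.33% against 2.15% and 2.34%, and 2.84% and 3.01% against 1.98% and 1.78%.

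Against no-probe captures neither MT-ND5 nor MT-ND6 was called in any combination by edgeR. TIA1 no-probe captures held 3.29% and 3.17% MT-ND6, inside the range of the labelled ones, and G3BP2 no-probe captures 1.86% and 3.30%. The relative probe dependence of MT-ND6 was -0.03, 0.18, -0.04 and -0.19, and that of MT-ND5 0.24, 0.45, 0.13 and 0.14. The most guanine-rich mRNA was thus not called above the others where the background capture was the reference.

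**Figure D3:**
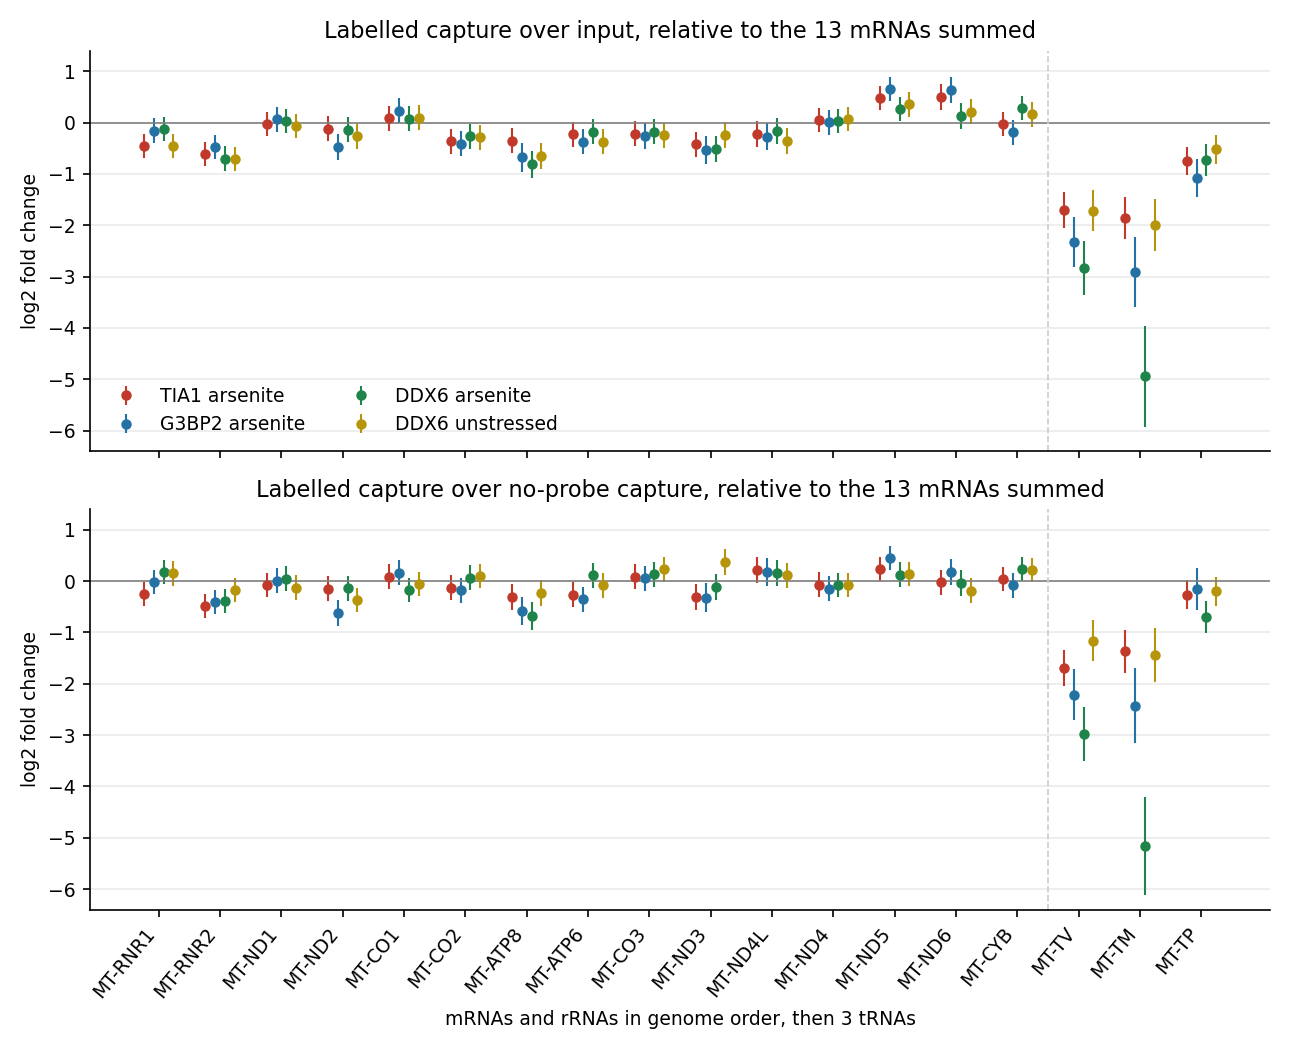
Log2 fold change ± SE relative to the summed 13 mRNAs, for the mRNAs, rRNAs and the tRNAs MT-TV, MT-TM and MT-TP; the upper panel shows labelled captures over inputs and the lower panel labelled over no-probe captures, for the 4 combinations. MT-TV and MT-TM lie below 0 in both panels, whereas MT-ND5 and MT-ND6 lie above 0 with TIA1 and G3BP2 in the upper panel and MT-ND6 is at -0.03 and 0.18 in the lower one.

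Length and guanine content describe how the mRNAs were ordered. Over the 12 mRNAs other than MT-ND6, Pearson's r between enrichment and log length was 0.79, 0.76, 0.86 and 0.86 in the 4 combinations, longer mRNAs having fallen less. Over all 13 it was 0.54, 0.55, 0.79 and 0.74. With the 2 rRNAs added to the 13 it was 0.29, 0.44, 0.52 and 0.43. Background, which shares those inputs, had 0.58, 0.68, 0.71 and 0.85 over the 12, and probe dependence, which does not use them, had 0.45, 0.41, 0.51 and -0.05. The points share libraries, and many share a precursor, so these values are descriptions without a test.

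Guanine content gave r of 0.57, 0.60, 0.38 and 0.44 over the 13 mRNAs and 0.07, 0.31, 0.42 and 0.33 without MT-ND6. With TIA1 the enrichment value therefore rested on that 1 gene. Probe dependence had 0.23, 0.40, 0.23 and -0.09 over the 13 and 0.49, 0.56, 0.57 and 0.42 without MT-ND6. Background had 0.51, 0.48, 0.31 and 0.46 over the 13 and -0.40, -0.29, -0.07 and 0.02 without it. These too are descriptions without a test. Among 14304 nuclear genes, Spearman's rho of enrichment was -0.57, -0.23, -0.42 and -0.41 with guanine content and 0.36, 0.34, 0.22 and 0.28 with length. Background in those genes had 0.36, 0.37, 0.24 and 0.32 with guanine content and -0.20, -0.13, -0.14 and -0.08 with length.

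**Figure D4:**
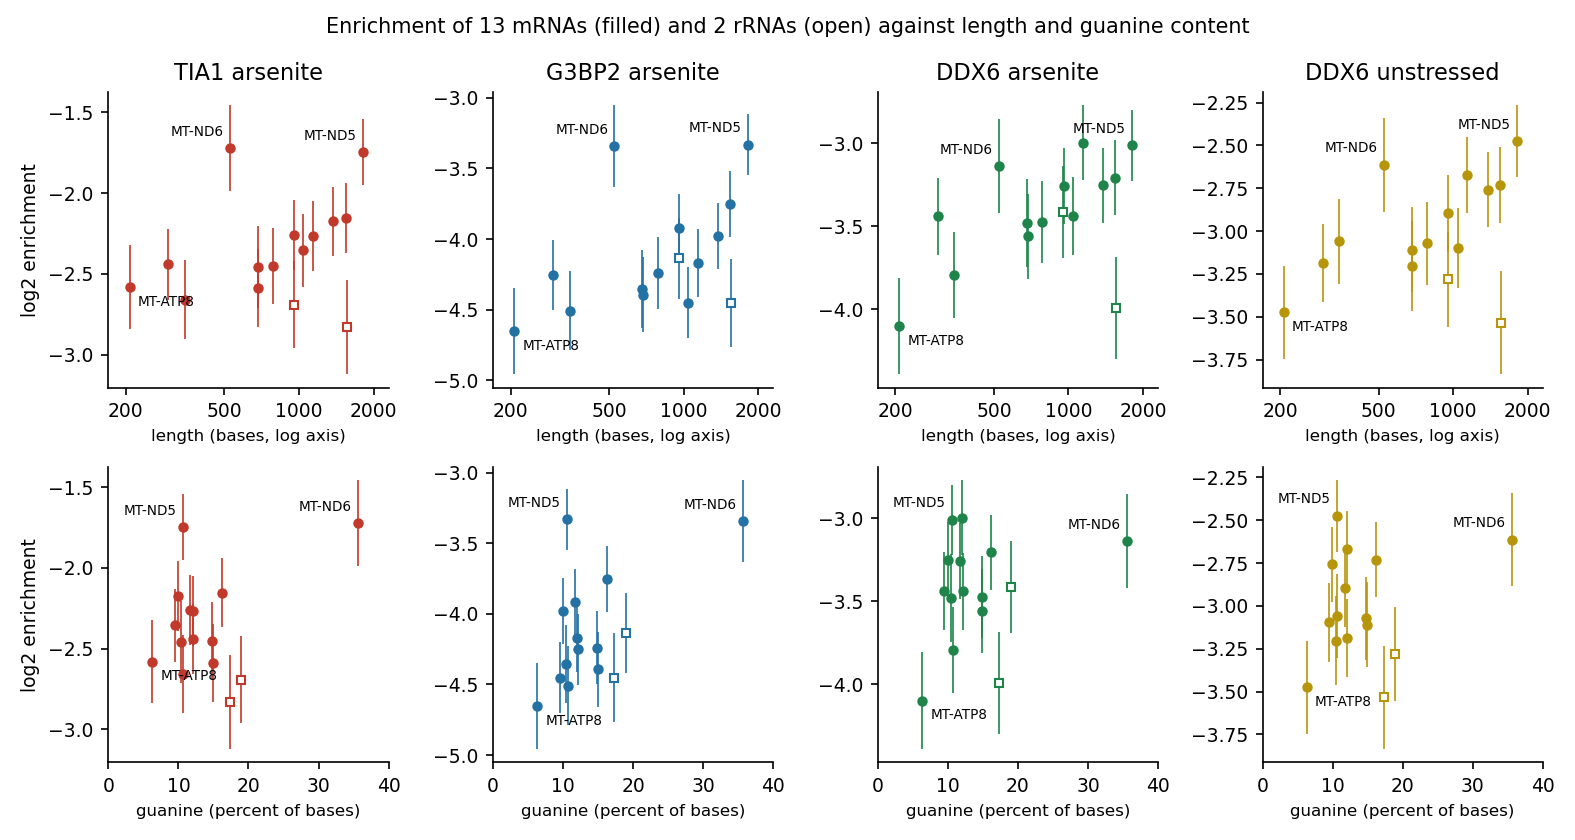
Enrichment (log2 labelled over input, ± SE) against gene length in bases (log axis) and against percent guanine, for the 13 mRNAs (filled) and 2 rRNAs (open) in the 4 combinations. The short MT-ATP8 (207 bases) lies lower than the long MT-ND5 (1812 bases) in every combination, while MT-ND6 stands alone at 35.6% guanine and level with MT-ND5.

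The combinations differed in how far the mitochondrial RNAs fell, and the difference itself was tested. Under arsenite, enrichment in TIA1 cells exceeded that in G3BP2 cells for all 13 mRNAs and both rRNAs. The differences ran from 1.44 (MT-RNR1) to 2.1 (MT-ND2) log2 units, with a highest adjusted p of 0.0204 over the 15 in edgeR's test. MT-TP also passed, at 2.04, as it did in TIA1 less DDX6 probe dependence below. Its labelled captures are described with no call, so its part in these counts is no result. Of all tested genes 3.61% differed and 2.28% were higher with TIA1. The captures of MT-ND2 show it: 388 and 499 with TIA1 and 41.3 and 46.5 with G3BP2. Inputs moved in the same direction by less, 2353 and 2184 against 966 and 954. Leaving out 1 library left 13 to 16 of these calls, 13 without the second G3BP2 labelled capture. In probe dependence 12 members differed the same way, where 7.17% of all genes did and 3.6% were higher with TIA1, and this count fell to 2 without the second TIA1 labelled capture or the second G3BP2 no-probe capture.

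TIA1 also exceeded DDX6 under arsenite for 5 mRNAs, MT-CO1 (1.05), MT-ATP8 (1.52), MT-ND4 (1.08), MT-ND5 (1.26) and MT-ND6 (1.42), where 2.35% of all tested genes differed and 1.51% were higher with TIA1. Of the 15 genes, 14 had an unadjusted p under 0.05. The 5 calls were lost without the second TIA1 labelled capture, either TIA1 input, the second DDX6 labelled capture or the first DDX6 input. In probe dependence 4 members differed, MT-CO1, MT-ATP8, MT-ND5 and MT-TP, where 7.17% of all genes did and 3.91% were higher with TIA1, with 0 to 13 when 1 library was left out. That range ran from none without the second TIA1 labelled capture to 13 without the first DDX6 no-probe capture.

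G3BP2 and DDX6 under arsenite differed for no member in enrichment by edgeR's test, where 0.0487% of all genes did, although 8 of the 15 had an unadjusted p under 0.05 and DESeq2 called 2 members. The estimates, G3BP2 less DDX6, were -1.17 for MT-CYB (unadjusted 95% interval -1.78 to -0.56, adjusted p = 0.118) to -0.20 for MT-ND6, all negative. In probe dependence no member differed by edgeR or DESeq2, where 0.0279% of all genes did.

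**Figure D5:**
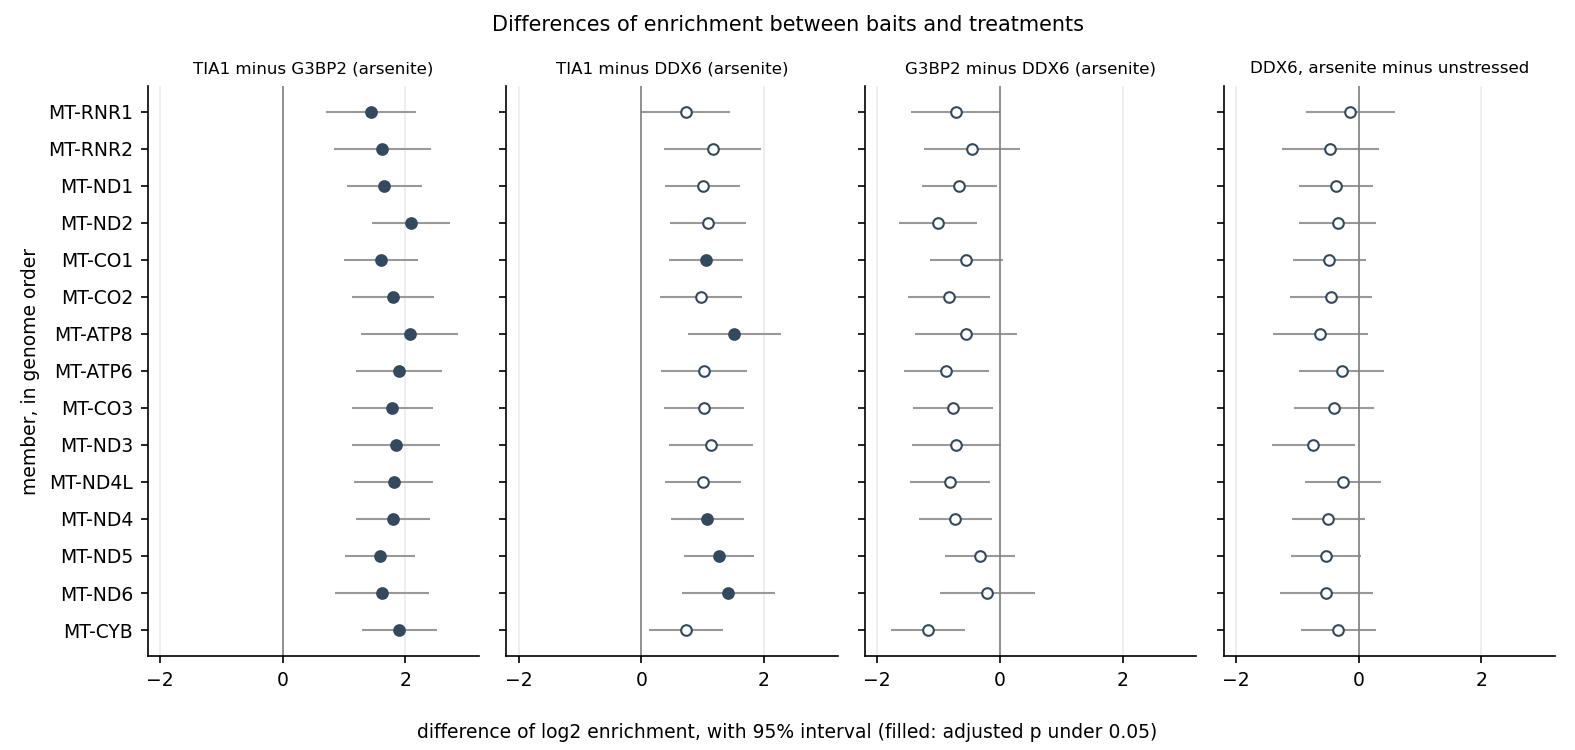
Difference of log2 enrichment between combinations with its unadjusted 95% interval, for the 13 mRNAs and 2 rRNAs; filled points have an adjusted p under 0.05. All 15 are filled for TIA1 less G3BP2, 5 for TIA1 less DDX6, and none for G3BP2 less DDX6 or for DDX6 with less without arsenite.

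DDX6 cells were the only ones labelled with and without arsenite. No member differed in enrichment between these by edgeR or DESeq2, where 0.0209% of all genes differed, and 1 of the 15 had an unadjusted p under 0.05. The difference, arsenite less unstressed, was negative for all 15, from -0.74 for MT-ND3 (95% interval -1.42 to -0.05) to -0.13 for MT-RNR1. Captured MT-ND3 was 42.7 and 37.4 with arsenite and 57.1 and 45.9 without, and the inputs 489 and 626 against 436 and 423. Probe dependence differed for no member either by both tools, where 0.0209% of all genes did. In the inputs themselves no member changed with arsenite in edgeR or DESeq2, where 1.15% of genes did. MT-ND2 alone of the 15 had an unadjusted p under 0.05, at 0.53 (0.09 to 0.96) above the unstressed input.

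Inputs of the 3 lines under arsenite differed for some members. TIA1 inputs were above G3BP2 inputs for 10 members by edgeR, where 4.14% of all genes differed and 2.2% were higher: 8 mRNAs of complexes I and III (MT-ND1 1.55 ± 0.21, MT-ND2 1.24, MT-ND3 1.08, MT-CYB 1.03, MT-ND6 1.03, MT-ND5 0.96, MT-ND4 0.77, MT-ND4L 0.74), MT-TF (1.98) and MT-TP (0.82). MT-TF had 38 counts over both TIA1 inputs and 12 over both G3BP2 inputs, too shallow to compare, so its call is no result. For MT-ND1 the levels were 3211 and 2939 against 1139 and 967, with an adjusted p of 3.43e-05 in edgeR's test. The mRNAs of complexes IV and V and the rRNAs were not called, MT-RNR1 being at 0.56 (0.05 to 1.08). Mean TIA1 input levels of these uncalled mRNAs were also above the G3BP2 ones. They were 8179 against 5375 for MT-CO1, 3504 against 2565 for MT-CO2 and 3430 against 2088 for MT-CO3. MT-ATP6 had 2577 against 2057 and MT-ATP8 348 against 205, where the called MT-ND4 had 4171 against 2438. Whether the complexes differed from each other was not tested. The count was 2 to 5 when 1 library was left out, 2 without the first TIA1 or the second G3BP2 input. Relative to the mRNA sum MT-ND1 was still 0.77 higher (adjusted p = 0.0072, with 47.7% of all genes called on that scale).

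G3BP2 inputs were below DDX6 inputs under arsenite for MT-ND1 (-1.17), MT-ND2 (-1.15), MT-ND3 (-1.15) and MT-ND5 (-0.84), where 0.787% of genes differed and 0.494% were lower, and none of these calls held without the second G3BP2 input. TIA1 and DDX6 inputs differed for no member in edgeR or DESeq2, where 0.877% of genes did.

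Nuclear genes whose proteins work on or with these RNAs are translated in the cytosol. Of 46 genes for mitochondrial transcription, RNA processing and decay, 45 were tested, and 8 rose and 7 fell with TIA1, 13 and 6 with G3BP2, 15 and 3 with DDX6 under arsenite and 13 and 5 unstressed, with medians of 0.09, 0.28, 0.31 and 0.28. Over all tested genes 19.4%, 20.8%, 20.4% and 22.9% rose, while 16.4%, 17.5%, 17.3% and 19.6% fell. TFAM, which packages mitochondrial DNA, rose by 1.62, 1.29, 1.24 and 1.26. LRPPRC, which stabilises mitochondrial mRNAs, rose by 0.76, 1.35, 0.90 and 0.68, and PTCD1, a pentatricopeptide protein that acts on mitochondrial RNA, had -0.60, -1.22, -1.33 and -1.23.

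Among nuclear genes for subunits of the same complexes, most calls were lower, and the medians lay above those of the mitochondrial mRNAs. Of 34 tested complex I genes 23, 20, 13 and 18 fell and 1, 0, 2 and 1 rose, with medians of -0.92, -0.76, -0.48 and -0.67. Over all tested genes 16.4%, 17.5%, 17.3% and 19.6% fell and 19.4%, 20.8%, 20.4% and 22.9% rose. All 11 of complex IV fell with TIA1 and with G3BP2, and 7 and 10 with DDX6, with COX6B1 at -2.11, -2.03, -1.80 and -1.50. Of 9 complex III genes 6, 4, 4 and 4 fell, UQCR10 being at -1.53, -1.56, -0.94 and -1.07, and of 15 complex V genes 14, 11, 7 and 7 fell, ATP5MC1 being at -1.54, -1.90, -1.44 and -1.43. Among 74 tested genes for mitochondrial ribosomal proteins 29, 28, 10 and 14 fell and 5, 6, 13 and 13 rose. The medians of TIA1 less G3BP2 enrichment were -0.09, -0.25, 0.02 and -0.17 for the nuclear genes of complexes I, III, IV and V, -0.15 for the 45 genes acting on mitochondrial RNA and -0.09 for the ribosomal proteins. In these lists 1, 0, 0, 0, 1 and 3 genes differed, where 3.61% of all tested genes did.

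Copies of mitochondrial sequence in nuclear chromosomes could share reads with the members. The table holds 406 such genes, of which 163 had a count and 7 were tested, and their 21855 counts equal 0.164% of those of the members. MTATP6P1, with 12885 counts, changed by -2.45, -4.12, -3.52 and -3.31, next to -2.46, -4.35, -3.48 and -3.20 for MT-ATP6. MTRNR2L12, with 3064, changed by -3.07, -4.21, -4.14 and -3.65. MTND5P11 had -3.36, 0.00, -3.34 and -1.93 at far lower counts, and was called with TIA1 (adjusted p = 0.0479) and with DDX6 under arsenite (0.0337). Whether reads of the members were counted there was not tested.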

How the data were processed

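Counts per Ensembl gene (release 87, per the file headers) were deposited by the authors as raw whole numbers for each library. Reads were handled with cutadapt 1.18, FastQC 0.11.8, HISAT2 2.1.0, SAMtools and HTSeq 0.7.2 against GRCh38 (hg38), per the submitters' processing notes. Strand and multimapping settings are not given in the sources used here, so counts of overlapping, antisense and copied genes are uncertain. Symbols, coordinates and sequences came from GENCODE release 29, which held 57388 of 57992 identifiers. The members and lists were chosen with earlier results of these data known. Every member could be named, and from each other list the genes with the highest and lowest mean enrichment and the most abundant in inputs.

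In edgeR 4.0.16 (R 4.3.3), filterByExpr left 14360 genes, 23 of them members, library sizes were TMM-scaled, and 1 quasi-likelihood model over 12 groups (12 residual degrees of freedom, common biological coefficient of variation 12.9%) was tested two-sided by glmQLFTest, with Benjamini-Hochberg adjustment over all genes and a threshold of 0.05. Total counts were 1129510 to 5919467. Relative values used the summed counts of the 13 mRNAs as library size. Ratios of tRNA counts have exact conditional intervals at 95%, which cover counting error only. Scripts were tested on simulated data. Alternatives were total-count scaling, DESeq2 size factors, scaling on nuclear genes alone, no filter, a test against a log2 change of 1, a replicate block, a fit to the contrast's groups alone, all members as reference, DESeq2 1.42.0 and leaving out each library. The numbers of replicates are shared between groups, but no label says that they pair libraries.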

Additional observations from a re-analysis of the deposited data

Results flagged for a closer look

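These are members whose effect differed between cell lines by the test of the difference in edgeR's fit, as log2 differences. They share the TIA1 libraries, so they are not independent of each other, and bait and line cannot be told apart. Of the 23 tested members 16 were called in TIA1 less G3BP2 enrichment, 5 in TIA1 less DDX6 enrichment, and 12 and 4 in the same differences of probe dependence. Of all tested genes 3.61%, 2.35%, 7.17% and 7.17% differed in that order, and 2.28%, 1.51%, 3.6% and 3.91% were higher with TIA1. The 16 and the 4 include MT-TP, a tRNA whose labelled captures are described with no call, so its part in them is no result. TIA1 less G3BP2 enrichment under arsenite was 1.66 for MT-ND1, 2.1 for MT-ND2, 1.85 for MT-ND3, 1.8 for MT-ND4, 1.81 for MT-ND4L, 1.58 for MT-ND5 and 1.62 for MT-ND6 among complex I mRNAs. It was 1.9 for MT-CYB, 1.6 for MT-CO1, 1.81 for MT-CO2, 1.79 for MT-CO3, 1.89 for MT-ATP6 and 2.07 for MT-ATP8. The rRNAs MT-RNR1 and MT-RNR2 had 1.44 and 1.62, and MT-TP had 2.04.

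TIA1 less DDX6 enrichment was called for MT-CO1 (1.05), MT-ATP8 (1.52), MT-ND4 (1.08), MT-ND5 (1.26) and MT-ND6 (1.42). For probe dependence TIA1 less G3BP2 was 1.12 for MT-ND1, 1.67 for MT-ND2, 1.17 for MT-ND3, 1.28 for MT-ND4, 1.19 for MT-ND4L and 0.97 for MT-ND5. It was 1.33 for MT-CYB, 1.11 for MT-CO1, 1.24 for MT-CO2, 1.19 for MT-CO3, 1.28 for MT-ATP6 and 1.45 for MT-ATP8. TIA1 less DDX6 probe dependence was 1 for MT-CO1, 1.23 for MT-ATP8, 0.9 for MT-ND5 and 1.19 for MT-TP.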

How the results depend on the processing

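Of 1092 enrichments of single members under 24 alternatives, 1068 kept their direction and side of the threshold, 22 lost the call, 2 gained it and none reversed. The total includes the 8 tested tRNAs, for which passing the filter favoured lower calls, and is not split by class. Total-count scaling took the median enrichment of all genes from near 0 to 0.47 to 0.67 and left the estimate of every tested member below 0. Called members are counted below, tested tRNAs included, and where a count moved the cause was not tested. The share of all tested genes called under each alternative is not given here. These counts are therefore not read as results about the members.

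Total-count scaling gave 14 members for TIA1 less DDX6 enrichment and 16 for probe dependence. Without a filter (33 members tested) background gave 1 (TIA1), 6 (G3BP2), 2 and 3 (DDX6 with and without arsenite), enrichment differences 17 (TIA1 less DDX6) and 3 (G3BP2 less DDX6), probe dependence differences 17 (TIA1 less DDX6) and 5 (DDX6 with less without arsenite), and inputs 3 (TIA1 over DDX6) and 11 (G3BP2 over DDX6). Against a log2 change of 1, 0 remained for G3BP2 background, for the TIA1 differences from G3BP2 and DDX6 in enrichment and probe dependence, and for inputs of TIA1 over G3BP2 and G3BP2 over DDX6. Fits to the contrast's groups alone gave 0 for TIA1 less DDX6 probe dependence, 2, 4 and 5 for background (TIA1, G3BP2, unstressed DDX6), and 19, 3 and 9 for inputs (TIA1 over G3BP2, TIA1 over DDX6, G3BP2 over DDX6). DESeq2 gave 2 for G3BP2 background, 9 and 2 for TIA1 and G3BP2 less DDX6 enrichment, and 8 for G3BP2 over DDX6 inputs. With all members as reference, relative enrichment and background in unstressed DDX6 cells gave 7 and 3, and MT-RNR2, which dominates that reference, was called in no combination.

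The replicate block within combinations gave 3 and 1 for background (G3BP2, DDX6 under arsenite), 13 and 2 for TIA1 and G3BP2 less DDX6 enrichment, and 7 for TIA1 less DDX6 probe dependence. In the relative fit, where the block was added after seeing the data, it gave 2 for G3BP2 background. Deviations of same-numbered libraries correlated at -0.03 to 0.35, highest in DDX6 cells under arsenite (0.19 to 0.35), and with 2 numbers this is no more than a hint, so the numbers are not taken to pair them.

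Leaving out 1 library gave 0 to 7 for DDX6 background under arsenite, 0 for G3BP2 background, 0 to 6 for TIA1 less DDX6 enrichment, and for probe dependence 0 to 4 for DDX6 with less without arsenite and for G3BP2 less DDX6, 0 to 13 for TIA1 less DDX6 and 2 to 11 for TIA1 less G3BP2. For inputs it gave 0 to 3 (G3BP2 over DDX6) and 2 to 5 (TIA1 over G3BP2). In the relative fit it gave 0 to 2 for DDX6 background under arsenite, 4 to 6 and 3 to 5 for G3BP2 and TIA1 enrichment, and 3 to 7, 0 to 4, 1 to 7 and 2 to 3 for probe dependence of DDX6 with and without arsenite, G3BP2 and TIA1. Leaving out 1 library reversed MT-TS2 probe dependence with G3BP2 (-4.81 to 2.45, the latter without the first no-probe capture, adjusted p = 0.682) and MT-TV background with DDX6 under arsenite (-1.60 to 0.97, the former without the second no-probe capture, adjusted p = 0.0395).

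As a share of members plus protein-coding counts, means were 38.9% and 39.6% in TIA1 input and no-probe libraries, 31.0%, 1.92% and 25.1% in G3BP2 input, labelled and no-probe libraries, 37.4%, 3.85% and 32.8% with DDX6 under arsenite, and 34.9%, 4.27% and 26.5% unstressed. Members under about 10 counts in a library, most tRNAs, were too shallow to compare.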
